A study of Homo sapiens with 9 samples.

Results

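Gene expression 6 h after exposure to 100 nm silver particles was compared with expression in unexposed cells, in EA.hy926, an established human line made by fusing umbilical vein endothelial cells with the A549 lung carcinoma line. The comparison used 6 of the 9 arrays in the series: 3 arrays of unexposed cells and 3 arrays of cells given 100 nm silver particles. The other 3 arrays held cells given 5 nm silver particles for the same time. Both particle sizes were applied at about the concentration that kills 50% of cells, per the labels, and no source used here gives a dose by mass. Arrays were paired by the replicate number in their labels, so each gene has 3 differences, each the log2 intensity with 100 nm silver minus the log2 intensity in the control of the same number. Each gene symbol was represented by its brightest probe set, judged by the mean over the 9 arrays, and was kept where its log2 intensity was 5 or more on at least 3 of them. This left 12155 of 14884 genes. All cells came from 1 line, and the labels do not tell whether replicates were separate cultures. The p-values therefore reflect only how far these arrays scatter, a scatter that may be technical. Bronchial epithelial cells, named in the title of the series, were not analysed here.

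Silver particles release silver ions in cells, and these ions bind thiol groups. Thiol stress is read by several switches that act on separate gene sets. NRF2 turns on antioxidant genes such as HMOX1 through the antioxidant response element, MTF1 turns on metallothioneins through the metal response element, HSF1 turns on chaperones through the heat shock element, and ATF4 and DDIT3 carry the integrated stress response. In endothelial cells, stress also reaches cytokines such as IL11 and CXCL8 and adhesion molecules such as ICAM1 and SELE.

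Markers of endothelial and of epithelial cells were both read on the arrays. Of 17 endothelial markers with a named probe set, 15 had a mean log2 intensity of at least 5 over the 6 arrays, among them PECAM1, KDR, TIE1, ENG and NOS3, while EMCN and FLT4 were below it. All 8 epithelial markers with a probe set were at or above that level, KRT18 and KRT7 among them, with EPCAM near it at 5.10. The filter at the same level kept 12155 of 14884 genes, so reaching it does not mark a cell type. A mean of at least 8 was reached by 10 of the 17 endothelial and 3 of the 8 epithelial markers. Over all tested genes 3954 of 12155 reached it. Of the markers of other cells, CD68 and CSF1R of leukocytes and DES of muscle also reached a mean of 5, and CD14 of monocytes and DCN and LUM, which define fibroblasts, did not. The summed endothelial markers gave a log2 intensity of 14.0 to 14.4 in both groups, and the summed epithelial markers gave 11.2 to 12.1 in the control and 11.1 to 12.1 with 100 nm silver. Each array had 10764 to 11944 of the tested genes at a log2 intensity of 5 or more, and array medians over the tested genes were 6.78 to 7.35.

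No gene passed the test after 100 nm silver. With limma on all 9 arrays, 0 of 12155 genes (0%) had a Benjamini-Hochberg adjusted p under 0.05, and 0 had an unadjusted p under 0.05. With the replicate number as a block, limma again called 0 genes after adjustment, and 33 genes (0.271%) had an unadjusted p under 0.05 on 9 arrays and 95 genes (0.782%) on the 6 arrays of the comparison. The lowest adjusted p in the fit on 6 arrays was 0.762. With no true differences, a well-calibrated test would put a share of about 0.05 of genes under an unadjusted p of 0.05. These fits lie far below that share, so their lack of calls does not show that no gene responded.

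Within a pair the 2 arrays were close to identical. The difference was exactly 0 for 58.7%, 59.5% and 65.9% of genes in pairs 1, 2 and 3, and 3677 genes were exactly 0 in all 3 pairs. The SD of the differences over genes was 0.074, 0.081 and 0.088 on the log2 scale. Only 132 genes differed by at least 0.5 in any pair, 2 differed by at least 1 in any pair, and 0 differed by 0.5 in the same direction in all 3 pairs. The 2 largest single differences were ZNF708 in pair 2, at -1.13, and NBEAP1 in pair 3, at 1.36, and the other pairs gave 0.071 and 0.059 for ZNF708 and 0.089 and 0.21 for NBEAP1. Exact zeros can arise where probe sets are summarised by median polish over few arrays, and small true differences may be hidden in them.

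The differences of one pair did not carry over to another. Across the 12155 genes the differences of 100 nm silver had Pearson's r = -0.010 between pairs 1 and 2, 0.026 between pairs 1 and 3, and -0.0043 between pairs 2 and 3. The same values for 5 nm silver were 0.77, 0.65 and 0.62. These are descriptions across genes, which are not independent replicates, and each pair shares 1 control array between both particle sizes. Among genes that were not 0 in either of 2 pairs, 48.9% to 51.1% had the same sign after 100 nm silver. The scatter of pair 1 against pair 2 shows a round cloud for 100 nm silver and a slanted one for 5 nm silver.

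**Figure D1:**
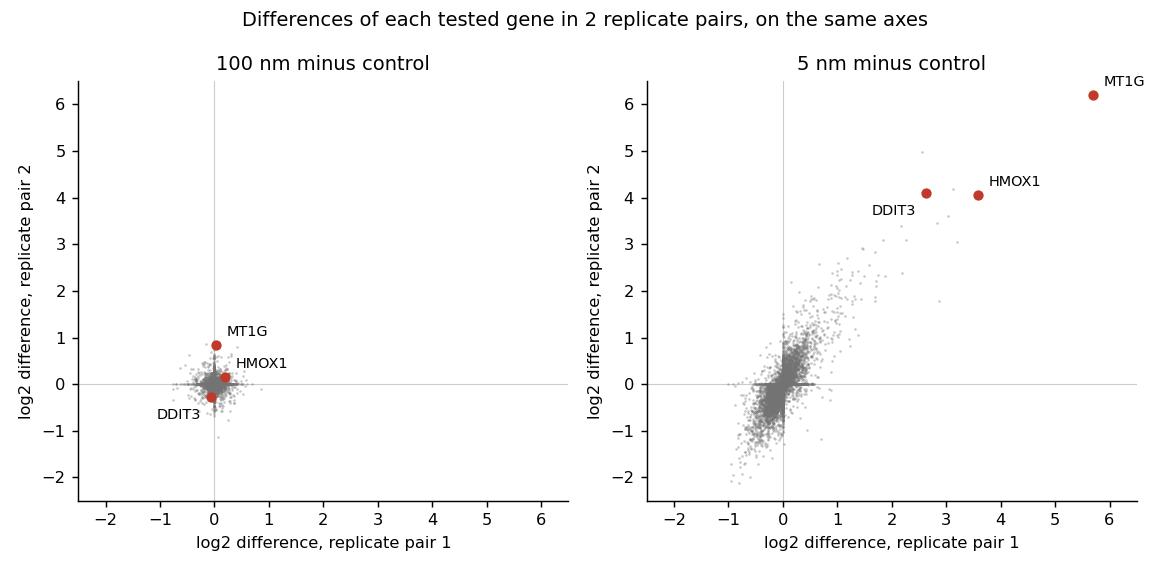
Log2 difference from the control in replicate pair 1 (horizontal) and pair 2 (vertical) for each of the 12155 tested genes, with 100 nm silver on the left and 5 nm silver on the right, on the same axes. With 100 nm silver the points lie around 0 with no slope (r = -0.010), and with 5 nm silver HMOX1, DDIT3 and MT1G lie far along the diagonal (r = 0.77).

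Among the antioxidant genes, HMOX1, TXNRD1 and GSR were higher with 100 nm silver in all 3 pairs, by small amounts that did not pass the test. HMOX1, which encodes the inducible enzyme that breaks down heme, had log2 intensities of 7.99, 8.10 and 8.72 in the control and 8.18, 8.25 and 8.90 with 100 nm silver (probe set 16929562). The exposed array was higher in each of the 3 pairs, by 0.20, 0.15 and 0.18, yet the groups overlapped, because the arrays numbered 3 were higher than the others in both groups. The mean difference was 0.17 ± 0.026 (SD, n = 3 pairs), a fold of 1.13. In limma without a block the 95% interval was -0.46 to 0.81 and the Benjamini-Hochberg adjusted p was 1. With the replicate block on 6 arrays the interval was 0.12 to 0.23, with an adjusted p of 0.762 in limma. The sign of the unpaired difference depended on 1 array: without the 100 nm array of replicate 3 it was -0.054. With 5 nm silver HMOX1 was higher than the control by 3.61.

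TXNRD1, the cytosolic thioredoxin reductase, had 9.75, 9.15 and 9.10 in the control and 9.84, 9.27 and 9.21 with 100 nm silver. Its pairs differed by 0.093, 0.12 and 0.11, and the groups overlapped. GSR, which regenerates reduced glutathione, had 11.10, 10.44 and 10.35 in the control and 11.16, 10.52 and 10.505 with 100 nm silver, and its pairs differed by 0.065, 0.087 and 0.15. The mean differences correspond to folds of 1.08 for TXNRD1 and 1.07 for GSR. Both had an adjusted p of 0.762 in limma with the block on 6 arrays. The intervals there were 0.081 to 0.13 for TXNRD1 and 0.010 to 0.19 for GSR. Without a block, neither interval lay within 0.5 on both sides. With 5 nm silver the same genes were higher than the control by 0.79 and 0.37 on the log2 scale, values that share the control arrays.

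Of 30 listed NRF2 targets, 13 were tested. HMOX1, TXNRD1 and GSR were higher in all 3 pairs and none was lower in all 3, beside 1.25% and 1.41% of all tested genes. Such rises were more common at high intensity. They numbered 25 of 1870 genes with a mean of 8 to 9, 24 of 1199 from 9 to 10 and 42 of 885 from 10 up. The means of HMOX1, TXNRD1 and GSR were 8.36, 9.38 and 10.68. The list median was 0.012 and the median of all genes was 0. SRXN1, which repairs oxidised peroxiredoxins, was higher by 0.19 in pair 1 and exactly 0 in the other pairs. PRDX1, a peroxiredoxin, had -0.070, -0.0053 and 0. OSGIN1, an NRF2 target induced by oxidative stress, differed by 0.11, 0.13 and 0. The list was chosen with earlier results of these arrays known, so its count does not stand as independent support. Among 25 other antioxidant enzymes, GLRX2 was higher in all 3 pairs and SELENOK lower, with a list median of -0.0069. NQO1, GCLM, GCLC and SLC7A11, the best known NRF2 targets beside these, had no named probe set here.

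**Figure D2:**
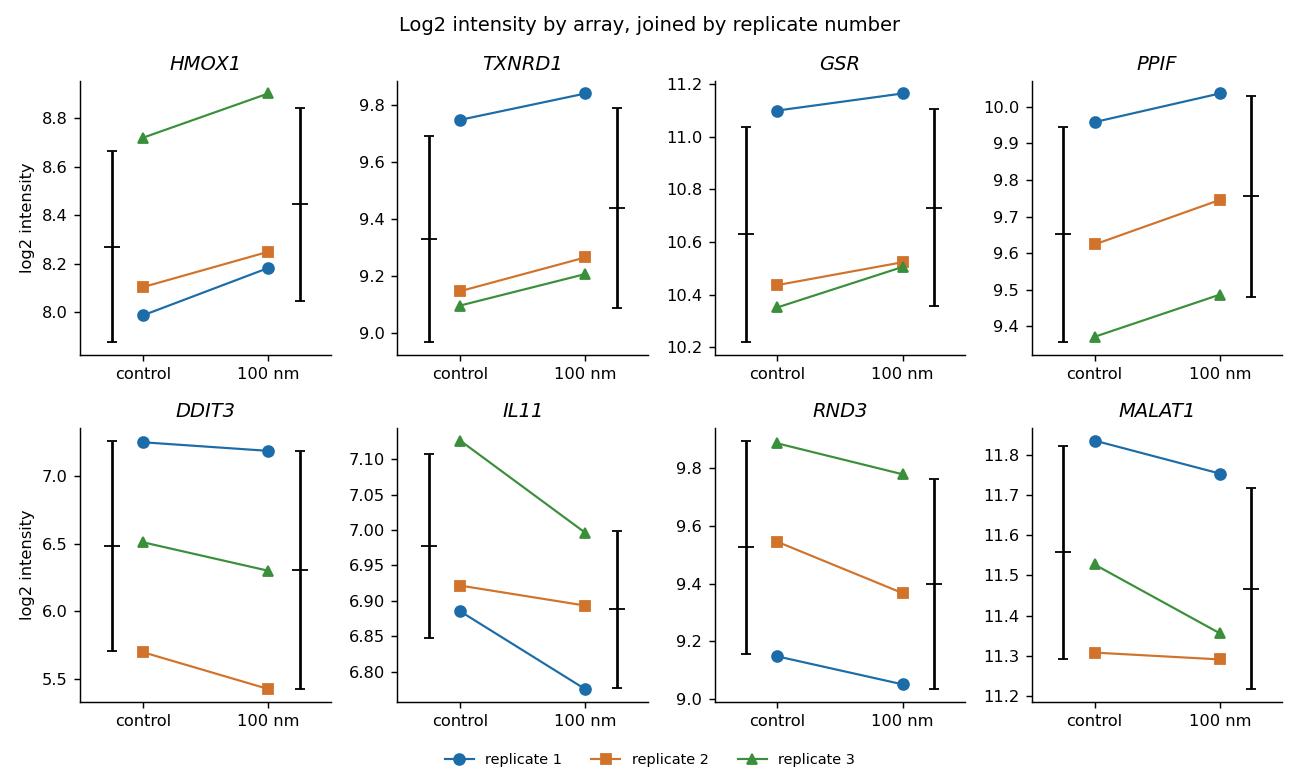
Log2 intensity of 8 genes on the 6 arrays, with lines joining the control and the 100 nm array of each replicate number; black bars give the mean and SD of each group (n = 3 arrays). All lines slope up for HMOX1, TXNRD1, GSR and PPIF and down for DDIT3, IL11, RND3 and MALAT1, while the group ranges overlap in each panel.

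The promoter of TXNRD1 is shown because it holds the letters of the antioxidant response element core, TGACNNNGC. The window is the 250 bases before a start of the gene on the plus strand, chr12:104215529-104215778 in GRCh38.p14 (RefSeq), and capitals mark the match, which begins 99 bases before the start.
TXNRD1: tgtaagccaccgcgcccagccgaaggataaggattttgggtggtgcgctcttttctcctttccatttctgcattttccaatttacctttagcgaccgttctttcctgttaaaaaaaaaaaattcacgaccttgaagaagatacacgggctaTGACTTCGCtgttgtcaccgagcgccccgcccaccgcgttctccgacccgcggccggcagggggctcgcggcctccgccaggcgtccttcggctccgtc
A second start of the gene has 1 match on the minus strand. Both strands were searched, and 10.9% of 35116 promoters in the table hold at least 1 match. The first 4 letters of this core also begin AP-1's motif, TGACTCA. A match is a description of letters and not of binding. HMOX1 had no entry in the promoter table and its sequence is not printed.

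Metallothioneins bind zinc, copper and silver ions. MT2A had 11.02, 10.72 and 10.79 in the control and the same 3 values with 100 nm silver, so its 3 differences were exactly 0. MT1X had 12.07, 11.47 and 11.29 in the control and 11.96, 11.47 and 11.35 with 100 nm silver, and its differences of -0.11, 0.0068 and 0.060 had no common sign. MT1E differed by -0.037, 0.19 and 0. MT1F differed by 0.025, 0.16 and 0.069 and was the metal-handling gene that was higher in all 3 pairs.

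MT1G, another metallothionein, spread more widely. It had 5.18, 4.03 and 4.95 in the control and 5.21, 4.88 and 4.60 with 100 nm silver, with differences of 0.031, 0.85 and -0.35. Most of these values lie below a log2 intensity of 5, and MT1G passed the filter through its values of 9.38 to 10.88 with 5 nm silver. Of 7 tested genes for metallothioneins and zinc handling, 1 was higher and 0 were lower in all 3 pairs. The shares over all tested genes were 1.25% and 1.41%, and the list median was 0.021. The MT1 genes resemble each other closely, so their probe sets may share signal.

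The promoter of MT2A is shown for the metal response element core, searched as TGCNCNC on both strands. The window is chr16:56608334-56608583, plus strand, in GRCh38.p14 (RefSeq), with 7 matches in capitals.
MT2A: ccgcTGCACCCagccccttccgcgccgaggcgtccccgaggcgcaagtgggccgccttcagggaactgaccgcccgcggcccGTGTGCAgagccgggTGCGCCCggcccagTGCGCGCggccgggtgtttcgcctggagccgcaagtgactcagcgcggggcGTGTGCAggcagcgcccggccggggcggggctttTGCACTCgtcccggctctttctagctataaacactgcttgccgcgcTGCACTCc
At least 1 match was found in 49.1% of 35116 promoters and at least 7 matches in 0.0854%. MT1X has 4 matches in its 250 bases. These letters are a loose form of the core, and other motifs can overlap them.

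Heat shock genes differed little within the pairs. HSPA6, an HSP70 gene that is almost silent without stress, had 5.66, 5.12 and 5.47 in the control and 5.69, 5.12 and 5.45 with 100 nm silver. Its differences were 0.038, 0 and -0.015. BAG3, a partner of HSP70 in clearing damaged proteins, was exactly 0 in 2 pairs and -0.070 in the third pair. HSPH1, an HSP70 exchange factor, differed by -0.023, 0.0085 and -0.032. HSPA1A had 11.92, 11.73 and 11.29 in the control and 11.99, 11.82 and 11.23 with 100 nm silver, with differences of 0.069, 0.093 and -0.060. HSPA1B, almost identical in sequence to HSPA1A, had 0.068, 0.12 and -0.027. Another HSPA1B probe set at a similar level was higher in all 3 pairs, by 0.057, 0.10 and 0.0059, and the remaining ones had no common sign. With 5 nm silver the 5 tested heat shock genes of the stress panel were higher than the control by 1.31 to 2.39.

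In the wider list of 16 tested chaperones, CACYBP was higher in all 3 pairs and UBB, a ubiquitin gene, lower in all 3. Of all tested genes, 1.25% were higher and 1.41% lower in all pairs. CHORDC1, an HSP90 partner, had the lowest mean, -0.26, from differences of 0.029, -0.56 and -0.25, so the pairs did not share a sign. The list median was -0.0078.

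The promoter of HSPA6 is shown because it holds a heat shock element, searched as GAANNTTCNNGAA and its reverse TTCNNGAANNTTC. The window is chr1:161524290-161524539, plus strand, in GRCh38.p14 (RefSeq), and the match in capitals begins 74 bases before the start.
HSPA6: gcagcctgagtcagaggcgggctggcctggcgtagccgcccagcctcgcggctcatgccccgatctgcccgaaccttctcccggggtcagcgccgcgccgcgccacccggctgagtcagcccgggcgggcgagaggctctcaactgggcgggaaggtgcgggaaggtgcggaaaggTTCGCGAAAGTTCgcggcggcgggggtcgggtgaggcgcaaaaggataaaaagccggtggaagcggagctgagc
This motif was found in 0.441% of 35116 promoters.

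The integrated stress response had members on both sides of 0. DDIT3, the transcription factor CHOP that rises in severe endoplasmic reticulum stress, had 7.25, 5.70 and 6.51 in the control and 7.19, 5.42 and 6.30 with 100 nm silver. It was lower in each pair, by -0.064, -0.27 and -0.21, with overlapping groups. The limma interval was -0.40 to 0.032 with the block on 6 arrays. With the block on 9 arrays the interval was not within 0.5 on both sides. With 5 nm silver DDIT3 was higher than the control by 2.83. ASNS, which makes asparagine and is an ATF4 target, was higher in all 3 pairs, by 0.12, 0.043 and 0.041. ATF4 itself differed by -0.091, 0 and 0, and ATF3 by -0.027, 0 and 0. TRIB3, a pseudokinase induced by CHOP, had -0.021, 0.055 and -0.11, and SESN2 had -0.032, -0.069 and 0.0023. DDIT4, an inhibitor of mTORC1, was lower by -0.40 in pair 1 and exactly 0 in the others. Of 20 tested genes of this list, 1 was higher and 1 lower in all 3 pairs, beside 1.25% and 1.41% of all tested genes.

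Among 15 tested endoplasmic reticulum chaperones and degradation genes, CALR alone was higher in all 3 pairs, by 0.045, 0.0245 and 0.0019, and the median was -0.014. XBP1 had -0.13, 0.041 and -0.098. Of 15 tested p53 targets, 0 had the same sign in all 3 pairs. Over all tested genes 1.25% were higher and 1.41% lower in all pairs, so such counts say little about lists this short. PMAIP1, the death gene NOXA, differed by -0.011, 0.20 and 0.066, and SESN1 by -0.18, 0.010 and 0.057. CDKN1A and MDM2 had no named probe set here.

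Cytokine genes did not pass the test either. IL11, a relative of interleukin-6 named in the series title, had 6.89, 6.92 and 7.13 in the control and 6.78, 6.89 and 6.996 with 100 nm silver. It was lower in all 3 pairs, by -0.11, -0.028 and -0.13, and the groups overlapped. The limma interval with the block on 6 arrays was -0.20 to 0.018, and with the block on 9 arrays it was not within 0.5 on both sides. LIF, of the same family, had 0.23, 0.32 and -0.045, at log2 intensities of 4.78 to 5.61. CCL4, a macrophage chemokine, had 4.33, 3.24 and 5.51 in the control and 4.10, 2.83 and 5.22 with 100 nm silver. It was lower in all 3 pairs, by -0.23, -0.41 and -0.29, with overlapping groups and most values below a log2 intensity of 5.

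CXCL8, the neutrophil chemokine, and MMP10, a matrix protease, differed alike pair by pair, up in pair 1 and down in pair 3. CXCL8 differed by 0.34, 0 and -0.30, and MMP10 by 0.34, 0 and -0.28. PTGS2, the inducible cyclooxygenase, was lower in all 3 pairs, by -0.13, -0.071 and -0.025. Of the adhesion molecules, SELE was exactly 0 in all 3 pairs at log2 intensities of 4.70 to 5.08, and ICAM1 differed by -0.12, 0 and 0.15. In the list of 19 tested inflammatory genes, PTGS2 was the one gene with the same sign in all pairs. Of 22 interferon genes 0 had 1 sign throughout. Over all tested genes 1.25% were higher and 1.41% lower in all pairs, so such counts say little about these lists.

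Immediate-early genes showed how far the replicate sets lay apart. FOS had 7.90, 8.91 and 10.60 in the control and 7.66, 8.64 and 10.60 with 100 nm silver. Its pair differences were -0.24, -0.27 and 0, much smaller than the span between controls. FOSB, its close relative, differed alike, at -0.24, -0.32 and 0. EGR1 had 6.67, 8.29 and 9.84 in the control and was lower by -0.33 in pair 2 only. FOSL1 was higher in all 3 pairs, by 0.074, 0.027 and 0.040, and ARC lower, by -0.035, -0.020 and -0.010.

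Genes of sterol synthesis, growth and endothelial tone were near the control as well. INSIG1, which holds back sterol synthesis, was lower by -0.074, -0.096 and -0.040, while HMGCS1, an enzyme of that route, had 0.018, -0.17 and -0.12. Of 33 tested mitosis genes 0 had the same sign in all pairs, beside 1.25% higher and 1.41% lower over all tested genes. MKI67 differed by 0.058, 0.050 and -0.086. Of 23 replication genes, MCM7, a subunit of the replicative helicase, was lower by -0.0535, -0.059 and -0.091, and CDT1, which loads that helicase, by -0.022, -0.17 and -0.046. EDN1, which encodes the vasoconstrictor endothelin 1, was lower in all 3 pairs, by -0.052, -0.0029 and -0.10. GAPDH, a reference gene, differed by 0, -0.0047 and 0.

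**Figure D3:**
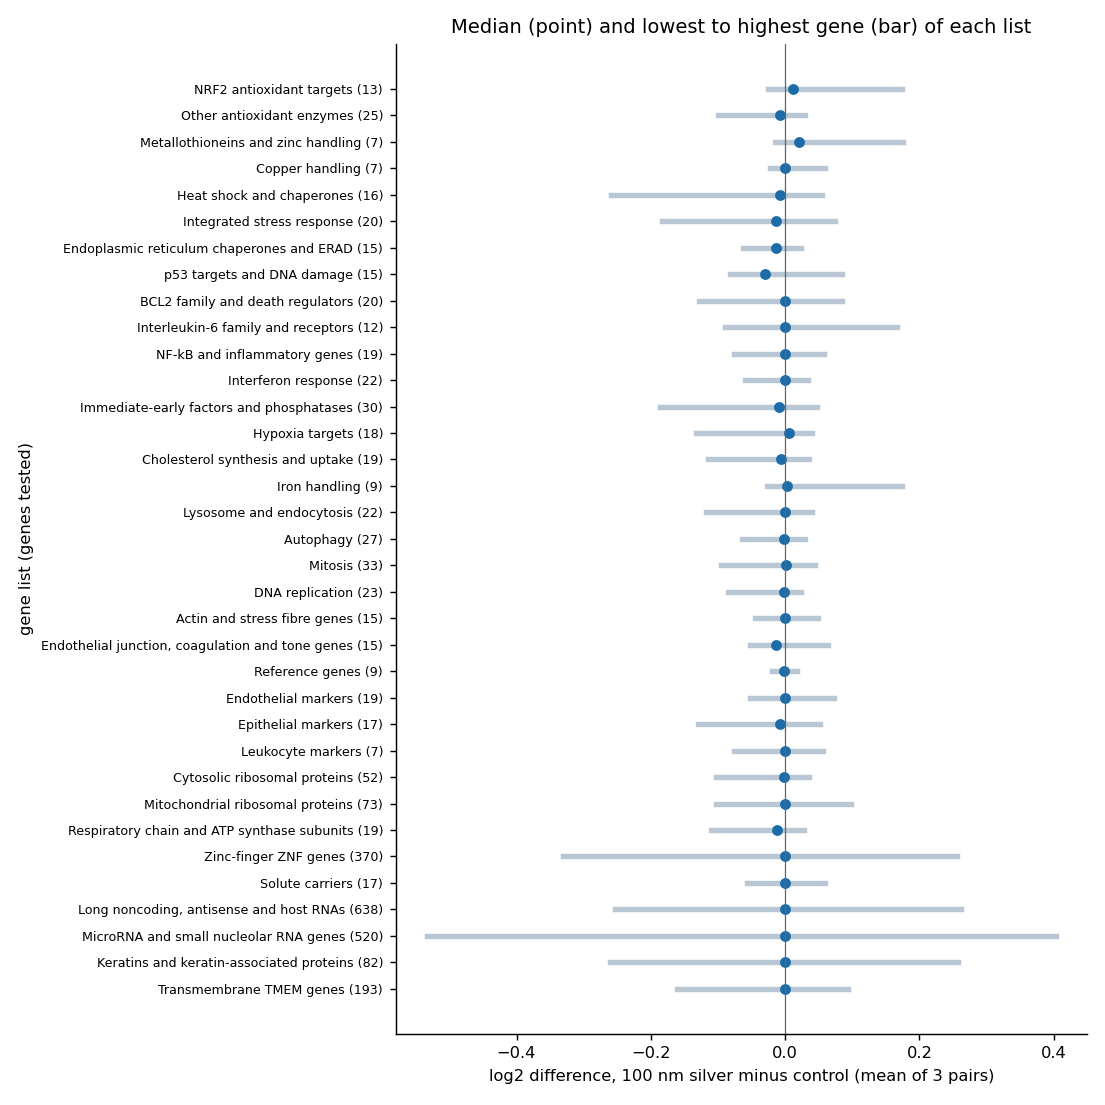
Difference of 100 nm silver from the control for the gene lists with at least 5 tested members; points are list medians of the mean pair difference, bars run from the lowest to the highest gene, and the number of tested genes is in parentheses. The medians lie between -0.030 for p53 targets and 0.021 for metallothioneins and zinc handling, and the widest bar belongs to the microRNA and small nucleolar RNA genes.

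How close to 0 the stress genes can be placed depends on which spread is used. A difference of 0.5 on the log2 scale is 1.41-fold, and a gene was counted as bounded where its 95% limma interval lay within 0.5 on both sides. With the replicate block on 9 arrays, 11458 of 12155 genes were bounded (94.3%), and with the block on 6 arrays 11710 (96.3%). Without a block, 1731 genes were (14.2%), because the offsets between replicate sets then stay in the spread. Within 0.25, the block fits bounded 75.5% of genes on 9 arrays and 85.9% on 6.

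A stress panel of 64 genes had 44 tested members, 18 had no named probe set, and MT1M and VCAM1 were below the filter. The block fit on 9 arrays bounded 15 of the 44 within 0.5, and the block fit on 6 arrays bounded 39, with 29 within 0.25. Without a block, 3 were bounded. Over all tested genes the shares were 94.3% on 9 arrays, 96.3% on 6 arrays with 85.9% within 0.25, and 14.2% without a block. The median half-width of the interval over the panel was 0.63 with the block on 9 arrays and 0.15 with the block on 6, beside 0.11 and 0.048 over all tested genes. The fit on 9 arrays takes its spread also from the 5 nm arrays, on which the panel genes varied between replicate numbers, and the fit on 6 arrays does not. The 5 genes outside that bound on 6 arrays were MT1G, DDIT4, LIF, CXCL8 and MMP10.

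By role, the block fit on 6 arrays bounded 4 of 4 antioxidant genes, 4 of 5 metallothioneins, 5 of 5 heat shock genes, 8 of 9 genes of the integrated stress response and endoplasmic reticulum, 2 of 2 p53 targets, 4 of 7 inflammatory genes and 3 of 3 cell cycle genes. On 9 arrays the numbers were 2, 3, 3, 2, 0, 2 and 0. Over all tested genes 96.3% were bounded on 6 arrays and 94.3% on 9. The counts on 6 arrays therefore say little about any 1 role. Of the 7 early factors and other genes, INSIG1 and HMGCS1 among them, 7 were bounded on 6 arrays and 1 on 9. SQSTM1 and GAPDH were bounded in both fits. HSPA6 shows the gap: its interval was -0.047 to 0.062 on 6 arrays and -0.76 to 0.78 on 9. For HMOX1 the upper limits were 0.23, 0.71 and 0.81 with the block on 6 arrays, the block on 9 arrays and no block. The narrowest intervals, such as that of MT2A, come from exact zeros and understate what the arrays could have missed.

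**Figure D4:**
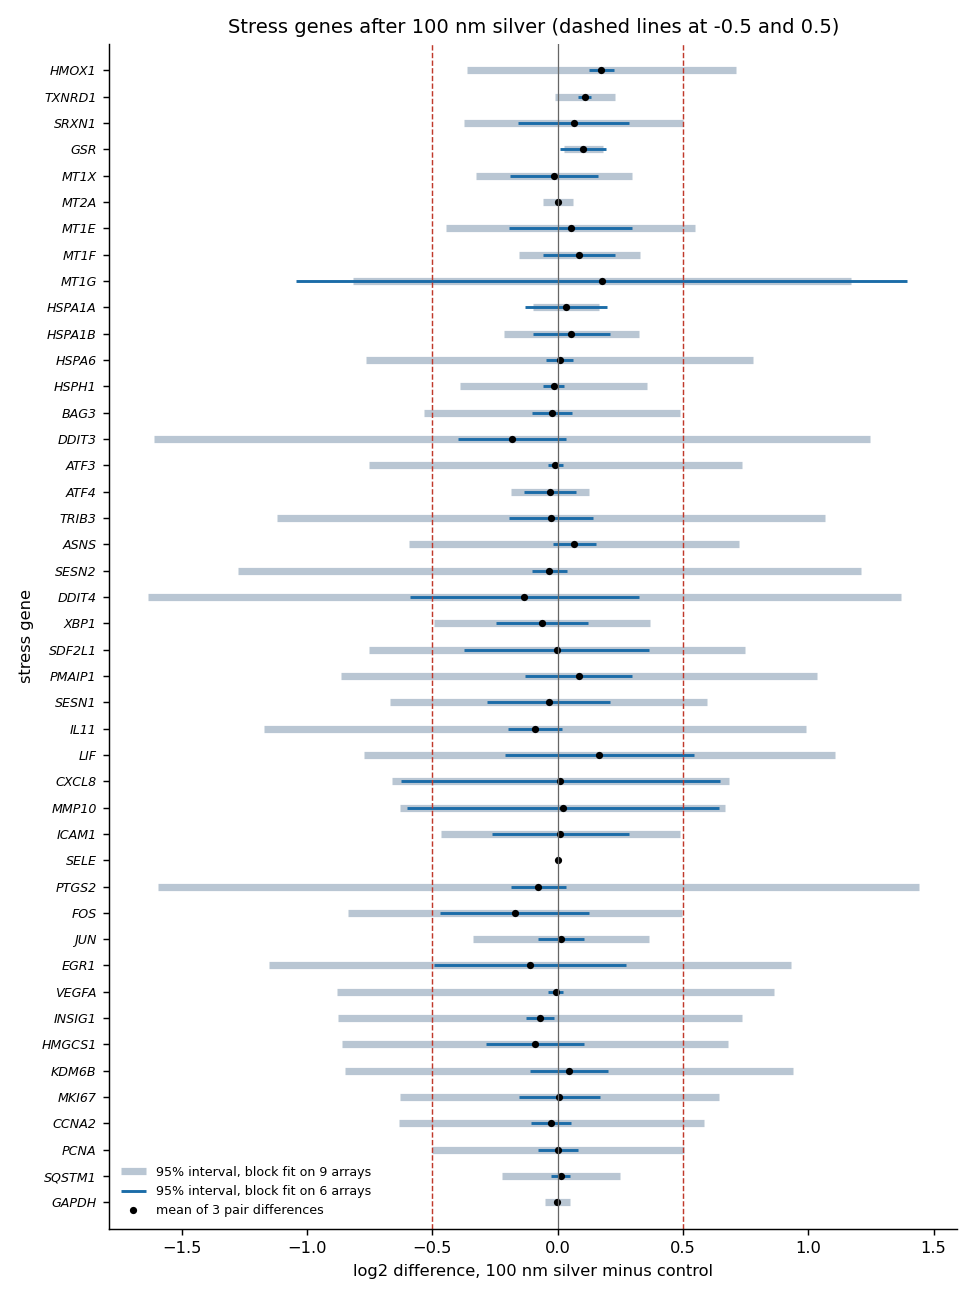
Mean difference (point) and 95% limma interval of the 44 tested stress genes, 100 nm silver minus control on the log2 scale; thick grey bars are from the block fit on 9 arrays and thin blue bars from the block fit on 6 arrays. The blue bars lie within the dashed lines at -0.5 and 0.5 for 39 genes and the grey bars for 15.

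Small differences with 1 sign in all 3 pairs were few. In total 152 genes (1.25%) were higher and 171 (1.41%) lower in all pairs by any amount. That split changed with the scaling of the arrays, to 337 higher and 1355 lower after centring each array on its median, and to 1897 higher and 809 lower after quantile normalization over the 9 arrays. The counts at a size of at least 0.1 in every pair were 8 higher (0.0658%) and 11 lower (0.0905%), and each of these scalings kept 8 of the 8 higher and 10 of the 11 lower genes. With any 1 pair left out, the counts in the other pairs were 53 to 69 higher and 64 to 75 lower. Just inside the limit of 0.1 stood MIR4268, with a smallest difference of 0.12, and MIR4803, at -0.11. Just outside stood MIR941-1 at 0.098 and MIR16-2 at -0.099.

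The 8 higher genes were MIR548H2, NF1P2, HMOX1, MORC1, MIR3621, POU5F1P4, KLF14 and MIR4268, in order of their smallest difference. The 11 lower genes were MIR548C, MIR130B, CCL4, KRTAP5-8, MIR4267, MIR1238, KRTAP5-5, MIR548V, MIR4454, TPSB2 and MIR4803. Of these 19 genes, 10 were microRNA genes, and NF1P2 and POU5F1P4 are pseudogenes. HMOX1 was the one gene among the 19 from the stress panel. MicroRNA and small nucleolar RNA genes made up 520 of the tested genes. Of these, 12 (2.31%) were higher and 25 (4.81%) lower in all pairs, with 3 and 7 at the size of 0.1. The shares by any amount over all tested genes were 1.25% and 1.41%, and those at the size of 0.1 were 0.0658% and 0.0905%. Of the 520 genes 57 were exactly 0 in all pairs, beside 3677 of all 12155. More of the 520 could therefore share a sign. Single differences spread more at low intensity, with a 95th percentile of the absolute difference of 0.28 for genes with a mean below 5 and 0.11 for genes with a mean of 10 or more.

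Several of the microRNA genes are given by array. MIR548H2 had 6.98, 7.13 and 7.46 in the control and 7.30, 7.38 and 7.79 with 100 nm silver, higher by 0.32, 0.25 and 0.34. MIR548C had 5.72, 5.16 and 4.43 in the control and 5.36, 4.84 and 4.12 with 100 nm silver, lower by -0.36, -0.32 and -0.30. MIR130B had 6.74, 5.81 and 5.92 in the control and 6.28, 5.51 and 5.08 with 100 nm silver, and its second probe set was exactly 0 in all 3 pairs. MIR4267 was the microRNA gene of this set whose groups did not overlap, with 6.84, 6.74 and 6.62 in the control and 6.56, 6.53 and 6.21 with 100 nm silver. With 5 nm silver this probe set was also lower than the same control arrays, by -0.28, -0.21 and -0.44. The second probe set of MIR4267 differed by -0.94, 0.037 and 0.18 with 100 nm silver, so the 2 probe sets did not share a pattern. Which transcript a probe set of a microRNA gene reads is not stated by the labels or the annotation, and the labelled RNA was total RNA.

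Of 12 microRNA genes named by rank, 9 had mature sequences in the RefSeq table (GRCh38.p14), 12 sequences with 12 different seeds, so no seed was shared. Those of the genes described above, and of MIR941-1, are printed with the seed, bases 2 to 8, in capitals; of MIR130B the 3p form is printed and the 5p form is not.
hsa-miR-548c-3p: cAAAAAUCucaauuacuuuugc
hsa-miR-130b-3p: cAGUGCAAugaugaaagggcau
hsa-miR-4267: uCCAGCUCgguggcac
hsa-miR-941: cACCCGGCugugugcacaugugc
Their genes gave mean differences of -0.33, -0.53, -0.30 and 0.13 in that order. The probe sets read the genes' loci, so these values are not levels of the mature forms.

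**Figure D5:**
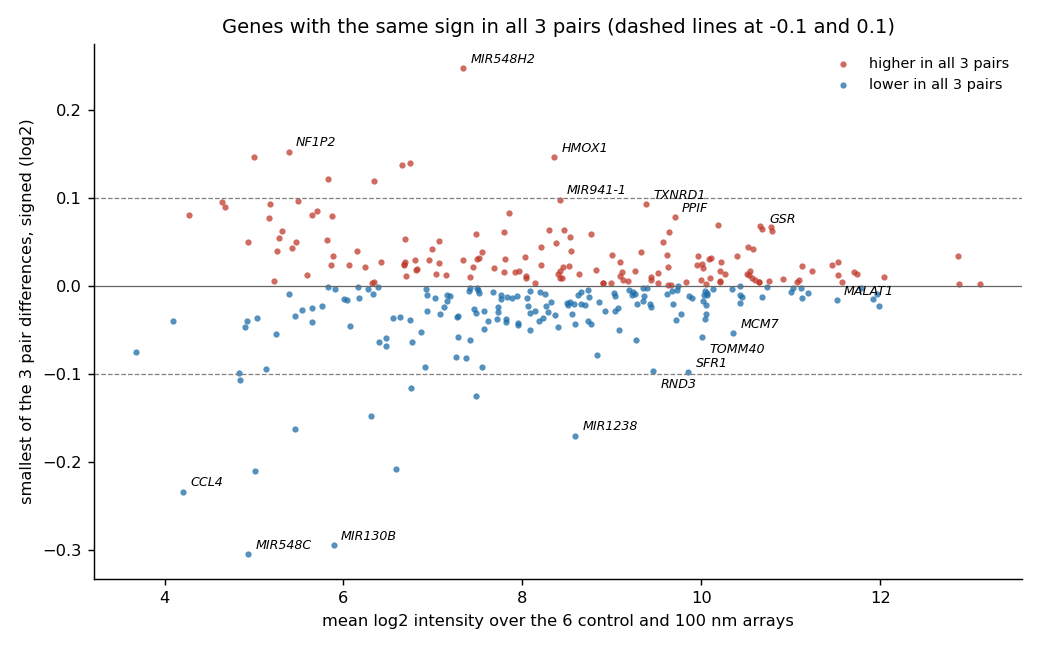
Smallest of the 3 pair differences, with its sign, against the mean log2 intensity over the 6 arrays, for the 152 genes higher and the 171 genes lower in all 3 pairs; dashed lines mark 0.1 and -0.1. Most genes past the lines have a mean below 8, and to the right of 8 HMOX1 and MIR1238 stand past them.

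Among the 3954 genes with a mean log2 intensity of at least 8, HMOX1 had the largest upward difference shared by all 3 pairs, followed by MIR941-1, TXNRD1 and PPIF. GSR was the eighth in that order. This order was looked at after the values were seen. PPIF, the mitochondrial cyclophilin that regulates the permeability transition pore, had 9.96, 9.62 and 9.37 in the control and 10.04, 9.75 and 9.49 with 100 nm silver. It was higher by 0.078, 0.12 and 0.12, and with 5 nm silver it had a mean difference of -0.067. NCS1, a neuronal calcium sensor, was higher by 0.12, 0.068 and 0.13, and MLX, a partner of MondoA and ChREBP, by 0.084, 0.092 and 0.066. HIPK2, a kinase that acts on p53, was higher by 0.14, 0.0625 and 0.082.

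On the lower side MIR1238 came first and was followed by SFR1 and RND3, which were named after their values were seen. SFR1, a helper of homologous recombination, had 10.12, 9.86 and 9.77 in the control and 10.00, 9.76 and 9.63 with 100 nm silver. It was lower by -0.12, -0.098 and -0.14, and with 5 nm silver its mean difference was -0.69. RND3, which opposes stress fibre formation, had 9.15, 9.55 and 9.89 in the control and 9.05, 9.37 and 9.78 with 100 nm silver. It was lower by -0.097, -0.18 and -0.11, and with 5 nm silver its mean difference was 1.08, of the opposite sign.

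MALAT1, an abundant nuclear long noncoding RNA, is the gene for which other probe sets, with values of their own, gave the same sign. It was also named after its values were seen. Its probe set in the test was lower by -0.082, -0.017 and -0.17, and its other probe sets by -0.26, -0.0049 and -0.031 and by -0.36, -0.17 and -0.19. The 3 other probe sets of MIR328 and MIR4454 hold the same values as the tested ones and were not counted. Of the remaining 24 other probe sets, which belong to 20 same-sign genes, the 2 of MALAT1 had the same sign in all 3 pairs, 8 were exactly 0 in all pairs, and 0 had the opposite sign in all pairs. The 3 probe sets of MALAT1 read 1 locus on the same arrays and are not replicates. With 5 nm silver its probe set in the test was higher by 0.17, 0.33 and 0.40, while the others had no common sign, at -0.23, 0.15 and 0.11 and at -0.28, 0.28 and 0.015. INSIG1, PTGS2, ASNS, MT1F, MCM7, CDT1, EDN1, PPIF, NCS1, MLX, HIPK2, SFR1, RND3 and MALAT1 kept their sign in every pair under both other scalings, as did HMOX1, TXNRD1, GSR, DDIT3 and IL11.

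The groups did not overlap for 4 of the 12155 genes. CEACAM3, a receptor of granulocytes, was above the control on all 100 nm arrays (0.00823% of genes), with 5.62, 5.57 and 5.50 in the control and 5.70, 5.78 and 5.73 with 100 nm silver. With 5 nm silver CEACAM3 was also higher than the same control arrays, by 0.62, 0.54 and 0.23. MIR194-2, MIR4267 and TOMM40 were below the control on all 100 nm arrays (0.0247%). TOMM40, the channel of the mitochondrial import complex, had 10.135, 10.06 and 10.06 in the control and 10.02, 9.78 and 10.00 with 100 nm silver. Its second probe set, at a similar level, differed by 0, 0.080 and 0 and did not share this pattern. With 5 nm silver the TOMM40 probe set in the test was also lower than the same control arrays, by -0.23, -0.17 and -0.016.

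The stress panel was last compared between the particle sizes, each at about its own LD50. With limma on all 9 arrays, 7 of the 44 panel genes differed between 5 nm and 100 nm silver at a Benjamini-Hochberg adjusted p under 0.05, beside 8 of all 12155 genes (0.0658%), and all 7 were higher with 5 nm silver. MT1G, 1 of the 7, passed the filter on low values only through its 5 nm arrays. SELE also met the filter only with its 5 nm arrays counted, though its difference between the particle sizes was 0. Of the other 42 panel genes 6 passed the test. HMOX1 had 11.57, 12.16 and 11.90 with 5 nm silver, each above its 100 nm values, a difference of 3.43 with a 95% interval of 2.80 to 4.06 and a limma adjusted p of 0.00115. The differences of the others were 5.27 for MT1G, 3.30 for IL11, 2.90 for MMP10, 2.75 for CXCL8, 2.38 for HSPA6 and 1.85 for BAG3. These genes were put on the panel with results of the 5 nm arrays known. With the replicate block on 9 arrays 7 of the 44 passed, beside 75 of all tested genes (0.617%). HMOX1, MT1G, CXCL8 and MMP10 passed in both fits, TXNRD1, HSPA1A and HSPA1B passed with the block, and HSPA6, BAG3 and IL11 then had limma adjusted p of 0.0685, 0.0538 and 0.0685. With the block on the 6 arrays of these groups limma called 0 of the 44 and 0 of all tested genes, with 30 of the 44 and 840 of all tested genes (6.91%) at an unadjusted p under 0.05. Dose by mass and particle size cannot be told apart in this comparison.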

How the data were processed

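Total RNA of 9 samples was labelled as cDNA from 300 ng each and read on Affymetrix arrays, per the labels. The authors deposited log2 intensities of 53617 probe sets, which the submitters' processing notes ascribe to RMA as run by Affymetrix Expression Console, version 1.3.1. Their genome build is not stated in those notes or in the labels. The platform annotation gives exactly 1 gene symbol for 16098 of the probe sets, which are called named here. The other 37519 have no symbol or more than 1 and are called unnamed. Old symbols were replaced by current ones that share the Entrez identifier.

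Arrays of the same replicate number held identical values for 58.7% to 65.9% of genes and arrays of different numbers for at most 0.00823%, and deviations from the group means correlated at 0.959 to 0.967 within a number (3 pairs of arrays) and at -0.582 to -0.297 between numbers (6 pairs). Deviations sum to 0 within a group. High values within a number therefore force those between numbers below 0 on average, and their sign is not evidence of pairing. Every same-number pair was above 0.1, so the numbers were taken to pair the arrays. Median polish over sets of 3 arrays can leave such identities; no source states that step, and it was not tested. Offsets between sets stay in the spread of fits without a block, and small differences within a set can be set to 0.

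Differences of log2 values were tested in R 4.3.3 with lmFit and eBayes of limma 3.58.1, with Benjamini-Hochberg adjustment over all 12155 genes, on 9 arrays with and without the replicate number as a block, and on the 6 arrays with it. The 95% intervals are those of limma for each gene. Tables and figures used Python 3.11.15. Named genes were the 12 largest same-sign differences each way, the stress panel, and the lowest and highest gene of each list; genes named otherwise are said to be so, and same-sign members of the lists were named after their values were seen. The genes, the 28 lists and 12 symbol families were chosen with earlier results of these data known. The number of arrays limits the precision. Lists are described by counts and medians, with no set test. Proteasome subunits, core histones and olfactory receptors had no tested member. The first 2 had no named probe set at all, which says nothing about their expression. Of 791 list symbols, 328 had no named probe set. Alternatives covered scaling, the filter, the probe set rule, the size limit, eBayes with trend, and each array left out.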

Additional observations from a re-analysis of the deposited data

Results flagged for a closer look

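Probe sets without exactly 1 gene symbol in the platform annotation, called unnamed, were not used in any comparison. Of 21616 such probe sets that passed the same filter, 193 (0.893%) were higher and 350 (1.62%) lower by at least 0.1 in all 3 pairs after 100 nm silver. The same counts over 13092 probe sets with 1 symbol were 9 (0.0687%) and 15 (0.115%). The median level of the unnamed ones was a log2 intensity of 6.10, beside 6.93 for the named ones. At least 1 pair differed by 0.5 or more in 10.9% of the unnamed and 1.21% of the named probe sets. All 3 pairs differed by at least 0.5 in 1 direction for 10 unnamed probe sets that were higher and 19 that were lower, and for 0 named ones.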

How the results depend on the processing

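With limma, 0 genes passed the adjusted threshold under every alternative run for that count, with 0 to 95 genes at an unadjusted p under 0.05. HMOX1 kept a positive difference under 19 alternatives and had -0.054 without the 100 nm array of replicate 3. Leaving out arrays gave -0.054 to 0.40. Several of the 19 could not change its mean difference, so their sign was fixed in advance. Those were the block fits, the fits on fewer genes or on 6 arrays, other eBayes settings, and leaving out a 5 nm array. The replicate block left its value at 0.17, as it must where each number has 1 array per group. The count of genes bounded within 0.5, 11458 with the replicate block, was 1731 with no replicate block and 9633 to 11786 with arrays left out. Genes of the stress panel that differed between particle sizes numbered 7, and 0 with the replicate block on 6 arrays. Genes higher by at least 0.1 in all 3 pairs numbered 8, and lower 11. With any shift they were 152 and 171, from 0.05 up 38 and 34, from 0.2 up 1 and 5, without the filter 19 and 18, and with a filter at 6 they were 5 and 6. Without replicates 1, 2 and 3 in turn they were 53, 69 and 54 higher and 75, 64 and 69 lower, since fewer pairs have to agree in sign.

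A fit on the 1335 genes with no exact 0, chosen after seeing the data, called 0 genes with the block on 6 arrays (61 unadjusted) and gave HMOX1 an interval of 0.087 to 0.26 with a limma adjusted p of 0.975. Many residual spreads in the block fits are close to 0 because of exact zeros, so their narrow intervals are not a measure of what the arrays can detect. Values near the filter are the least precise: the 95th percentile of absolute differences was 0.28 for genes with a mean below 5 and 0.12 for those from 9 to 10.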
